A study of Homo sapiens with 10 samples.

Results

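The glycolysis and hypoxia genes are a list of 36 genes taken by name from the deposited table of single libraries. The list holds the enzymes and transporters that carry glucose to lactate, together with genes known for their response to low oxygen. Of these, 35 were rows of the table, which has 14785 rows in all, and NDRG1 was not analysed here. The members were measured by RNA-seq in H1, a widely used human embryonic stem cell line that is wild type per the labels. All groups were grown in mTeSR1 on Matrigel, were infected with packaged shRNA virus and were selected with puromycin. The control carried an shRNA against LUC (shLUC, luciferase), and the other groups carried an shRNA against SMARCA4 (the ATPase of BAF chromatin remodelling complexes), MAFK (a small MAF protein that binds DNA as a partner of other bZIP proteins), E2F6 (a repressor of the E2F family) or KDM1A (a histone demethylase). Each of the 5 groups had 2 libraries, which the series describes as biological duplicates. An shRNA lowers a transcript rather than removing it, all groups come from 1 cell line, and the labels do not say how many shRNAs were used for a target or at what oxygen level the cells were kept.

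Glycolysis splits glucose into pyruvate and makes ATP without oxygen; lactate dehydrogenase then turns pyruvate into lactate, which leaves the cell through monocarboxylate transporters. Pluripotent stem cells are known for a high glycolytic rate. When oxygen is low, the protein HIF1A is no longer hydroxylated by the EGLN enzymes and escapes degradation, and with its partner ARNT it raises many glycolytic genes through sites with the core letters ACGTG. HIF1A is controlled mainly as a protein, so its transcript does not read its activity.

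Values are normalized tag counts on a scale that is the same in every library. The libraries had totals between 22836548 and 22855295 and the same median of 594, so the original depth is unknown. Values above 15000 fell on coarse steps, between 0.074 and 0.31 on the log2 scale except for the top step of 1.265. Of the members, 9 were above 15000 in at least 1 library and 4 in all 10. SMARCA4 stood at 1100 and 985 in its knockdown against 8086 and 8374 in shLUC, and KDM1A at 3290 and 1879 against 6344 and 5925. E2F6 stood at 336 and 304 against 491 and 553. MAFK read 82 and 216 in the libraries labelled shMAFK against 212 and 288 in shLUC, so shMAFK 2 was not below both controls, and each shMAFK result below rests on the label. Of the targets, only SMARCA4 passed an adjusted p of 0.05 in its own knockdown against shLUC (limma adjusted p = 8.6e-05). KDM1A, E2F6 and MAFK did not (limma adjusted p = 0.132, 0.774 and 0.572). All 12 pluripotency markers were present, with summed values of 147003 to 273150. The highest sum was that of shKDM1A 1, where POU5F1 read 148866 against 35710 in shKDM1A 2. Single markers did not all move together: in both shSMARCA4 libraries SOX2 and TDGF1 had their lowest values and NANOG its highest. Of 8 mesendoderm markers 3 were measured (MIXL1, EOMES and FOXA2), and their sum was 1026 to 5031 in shSMARCA4, against 38 to 50 in shLUC, 10 to 15 in shMAFK, 19 to 62 in shE2F6 and 25 to 34 in shKDM1A. EOMES was listed at 0 in 3 of the other libraries and FOXA2 in 4. The other 5 markers (TBXT, GSC, GATA4, GATA6 and SOX17) were not analysed here. Of 5 neural markers only DCX was measured, at 152 to 278, and of 5 trophoblast markers only KRT7, at 30 to 44 in shSMARCA4 against 125 to 360 elsewhere. The shKDM1A libraries differed most from each other, with a root mean square SD of 0.530 on the log2 scale over all rows against 0.264 to 0.335 in the other groups; over the members it was 0.375 against 0.199 to 0.328.

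Most members were lower in shMAFK than in shLUC. There 28 of 35 members had a lower mean log2 value, against 50.8% of all rows, with a median log2 change of -0.28 (all rows -0.0042). In shE2F6 the median was -0.16 (all rows -0.0034), in shSMARCA4 0.045 (all rows 0.0068) and in shKDM1A 0.020 (all rows -0.018). A log2 change here is a difference of group means of log2(value + 1). The shMAFK 1 library had 27 members below both shLUC libraries and shMAFK 2 had 20, while shE2F6 1 and shE2F6 2 had 20 and 16, shSMARCA4 1 and shSMARCA4 2 had 9 and 13, and shKDM1A 1 and shKDM1A 2 had 14 and 7. The share of all rows was not computed for these counts per library. A library that differs more from shLUC over the whole table can have more rows below both controls. The counts are therefore a description only, and no difference between libraries is read from them. The 4 comparisons share the shLUC libraries. The shMAFK median lay between -0.28 and -0.18 when any 1 library was left out, and the shE2F6 median between -0.22 and -0.057, the last without shLUC 1. The shSMARCA4 median ranged from -0.0019 without shLUC 2 to 0.20 without shLUC 1, and the shKDM1A median from -0.076 to 0.11 without the same libraries.

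**Figure D1:**
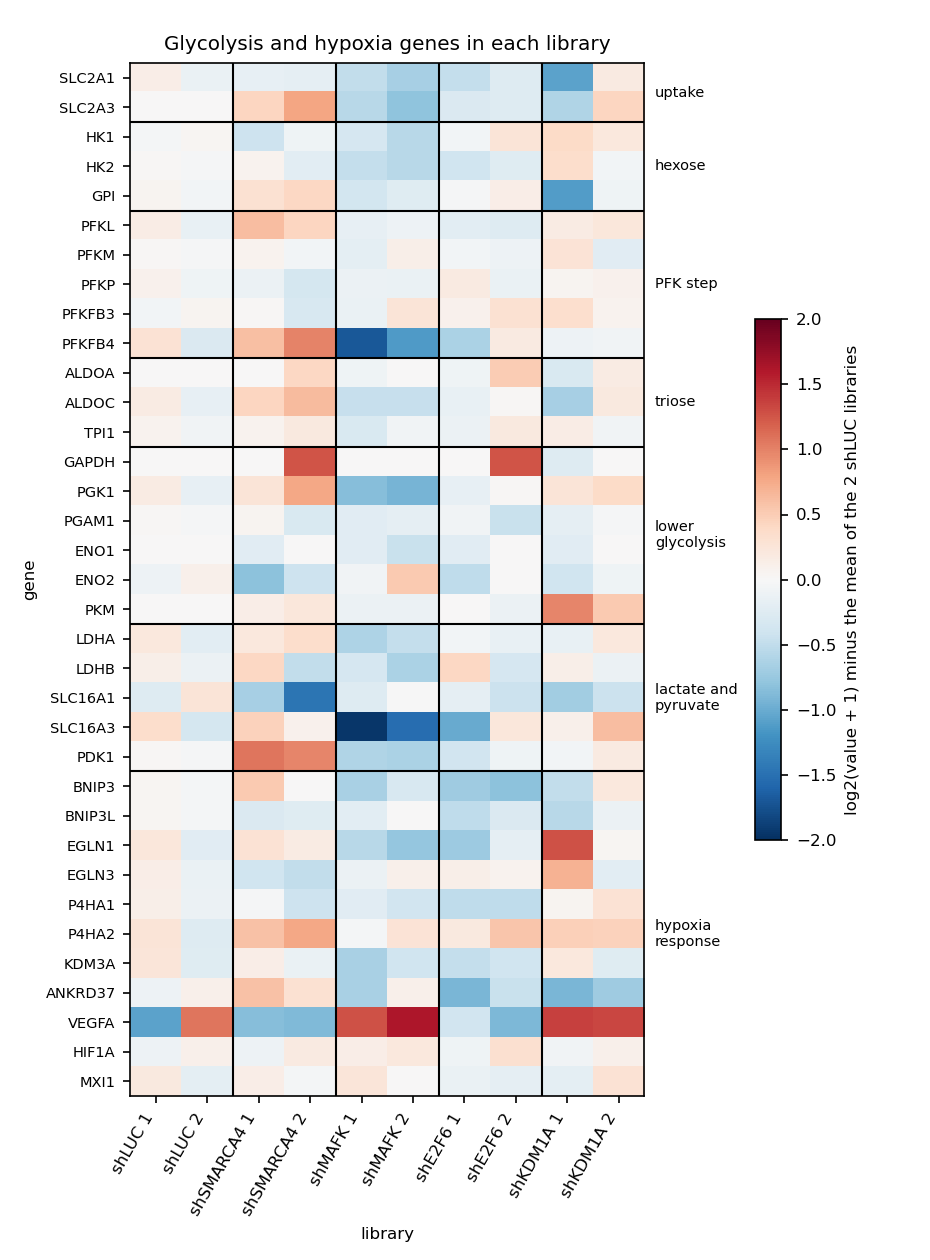
Difference of each member from the mean of the shLUC libraries, as log2(value + 1), for 35 genes in rows by role and 10 libraries in columns; blue is lower and red is higher. Both shMAFK columns are mostly blue, PDK1 and PFKFB4 are red in both shSMARCA4 columns, and VEGFA differs in sign between the 2 shLUC columns.

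Against shLUC, 1 member passed the test in shSMARCA4 and none in the other knockdowns (limma, adjusted p under 0.05 over all rows). Of all rows, 4.18% passed in shSMARCA4, 0.0135% in shMAFK, 0.0271% in shKDM1A and 0% in shE2F6, so in the last 3 comparisons the test called almost nothing in the whole table. At an unadjusted p under 0.05 the members numbered 11 in shMAFK, 7 in shSMARCA4, 2 in shE2F6 and 2 in shKDM1A, where all rows gave 8.77%, 16.3%, 5.09% and 11.5%. For shMAFK this is 31.4% of members, 10 of them lower and 1 higher, and for the others in that order 20.0%, 5.71% and 5.71%. A second count used no model: how many members had both knockdown libraries on the same side of both shLUC libraries. In shMAFK 20 members (57.1%) lay wholly below shLUC and 2 wholly above, against 25.3% and 23.8% of all rows. Some of the 20 lie on the coarse steps above 15000. PKM was apart by 1 step of 0.11 on the log2 scale, with 19692 in shMAFK against 21308 in shLUC. In ENO1 and LDHB 1 shMAFK library lay 1 step below the nearest control. In shE2F6 12 members (34.3%) lay below and 1 above, against 20.4% and 20.3%. In shSMARCA4 7 lay below and 10 above, against 25.4% and 25.6%, and in shKDM1A 4 lay below and 7 above, against 20.9% and 17.9%. The member shares in shSMARCA4, 20.0% and 28.6%, were near those of all rows.

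Because the shLUC libraries are common to these comparisons, each knockdown was also set against the mean of the other 3 knockdowns, which leaves shLUC out of the difference. By this contrast 5 members were higher in shSMARCA4, namely SLC2A3, PFKL, PFKFB4, PGK1 and PDK1 (14.3%, all rows 8.70%), and 4 were lower in shMAFK, namely PFKFB4, PGK1, SLC16A3 and PDK1 (11.4%, all rows 1.97%). PKM was higher in shKDM1A (2.86%, all rows 0.649%), and no member passed in shE2F6 (all rows 0.365%). The contrasts use the same 8 libraries, so a gene low in shMAFK also lies lower in the mean that shSMARCA4 is set against. A test over all 5 groups (limma's F-test) called PDK1, PGK1, PFKFB4 and PKM (11.4%, all rows 5.07%). Leaving out shMAFK 1 or shMAFK 2 left no member called in the shMAFK contrast, and leaving out shSMARCA4 2 left only PDK1 in the shSMARCA4 contrast; in these fits a single library stands for its group and is assumed to vary like the other groups. Leaving out shKDM1A 2 raised the counts over the whole table, to 11.8% of all rows in shMAFK, 21.0% in shSMARCA4, 5.78% in shE2F6 and 30.1% in shKDM1A. The members called were then 10 (28.6%), 13 (37.1%), 2 (5.71%) and 9 (25.7%) in that order, so the shares in the last 2 contrasts were near or below those of the table.

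**Figure D2:**
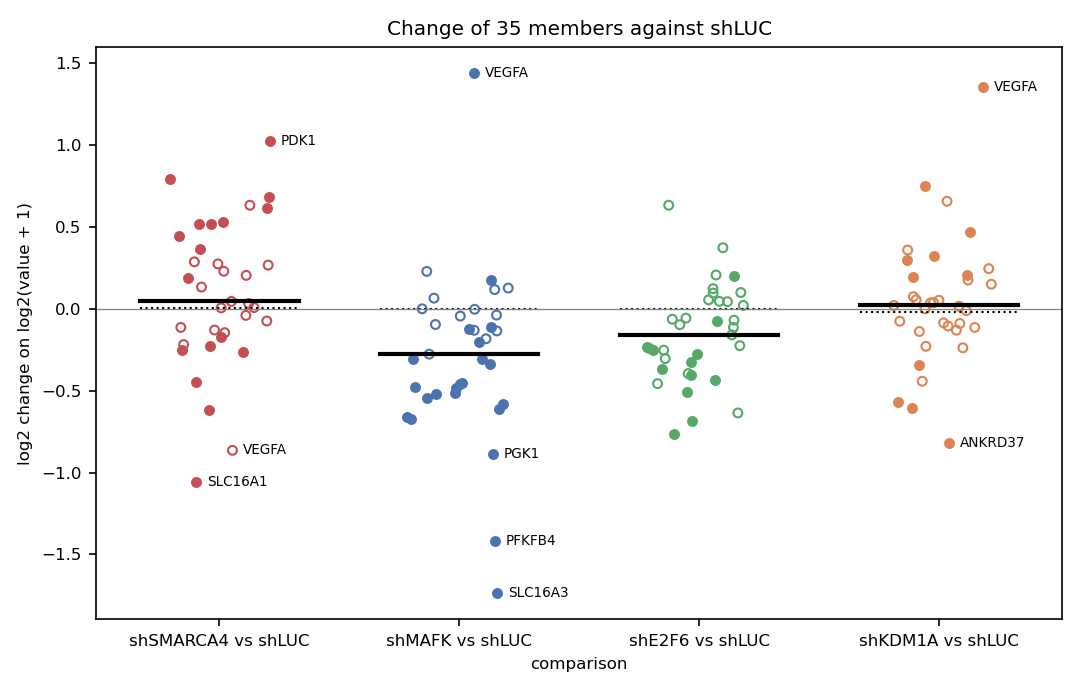
Log2 change of 35 members in each knockdown against shLUC; filled points are members whose knockdown libraries both lie on the same side of both shLUC libraries, thick lines are member medians and dotted lines medians over all rows. The shMAFK median of -0.28 lies below its dotted line at -0.0042, and most shMAFK points are filled.

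PDK1 (ENSG00000152256, chr2:172555373-172608669, plus strand, GRCh38) encodes pyruvate dehydrogenase kinase 1, which inhibits the entry of pyruvate into the mitochondrial cycle. Its values were 1118 and 1071 in shLUC, 724 and 708 in shMAFK, 2302 and 2147 in shSMARCA4, 838 and 1036 in shE2F6 and 1048 and 1234 in shKDM1A. The shSMARCA4 pair was the highest and the shMAFK pair the lowest of the 10 libraries, and neither overlapped any other group. PDK1 rose 2.03-fold in shSMARCA4 against shLUC (log2 change 1.02, SE 0.16, limma adjusted p = 0.0110). This call was lost when any of the 4 libraries compared was left out, with a limma adjusted p of 0.0900 without shLUC 1, 0.114 without shLUC 2, 0.0756 without shSMARCA4 1 and 0.0590 without shSMARCA4 2, and a log2 change of 0.97 to 1.07. Against the other 3 knockdowns PDK1 was higher in shSMARCA4 (log2 difference 1.28, SE 0.13, limma adjusted p = 8.29e-04) and passed in all 19 alternatives tried. In shMAFK it was lower than in the other 3 (log2 difference -0.89, SE 0.13, limma adjusted p = 0.0166); against shLUC its log2 change of -0.61 (SE 0.16) gave a limma adjusted p of 0.253. The measured mesendoderm markers were also higher in both shSMARCA4 libraries, with sums of 1026 to 5031 against 38 to 50 in shLUC; their part in this and the other shSMARCA4 results was not tested. In bulk RNA, a change in the share of a cell type and a change in RNA per cell cannot be told apart.

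PGK1 (ENSG00000102144, chrX:77910739-78129296, plus strand), the enzyme of the first ATP-making step of glycolysis, had values of 23453 and 18607 in shLUC and 11635 and 10950 in shMAFK. It had 25021 and 35710 in shSMARCA4, 18607 and 21308 in shE2F6, and 25021 and 27326 in shKDM1A. The shMAFK libraries were the lowest 2 of the 10. PGK1 was lower in shMAFK than in the other 3 knockdowns (log2 difference -1.15, SE 0.15, limma adjusted p = 0.0123), at 53.7% of the shLUC mean (log2 change against shLUC -0.89, SE 0.19, limma adjusted p = 0.155). In shSMARCA4 it was higher than in the other 3 (log2 difference 0.73, SE 0.15, limma adjusted p = 0.0192), although shSMARCA4 1 equalled shKDM1A 1 on the coarse steps. The shSMARCA4 call was lost without shSMARCA4 2 (limma adjusted p = 0.203) and without shMAFK 2 (0.0516). With values above 15000 set to 15000 the shMAFK difference from shLUC shrank to -0.41 and passed the test (limma adjusted p = 0.0331). The differences from the other 3 knockdowns shrank to -0.41 in shMAFK and to 0.14 in shSMARCA4, and both still passed (limma adjusted p = 0.0113 and 0.0295).

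PFKFB4 (ENSG00000114268, chr3:48517684-48562015, minus strand) makes and breaks down fructose 2,6-bisphosphate, the activator of phosphofructokinase. It had 664 and 440 in shLUC, 166 and 246 in shMAFK, 818 and 1073 in shSMARCA4, 348 and 614 in shE2F6 and 502 and 514 in shKDM1A. The shSMARCA4 and shMAFK pairs lay wholly above and wholly below the 6 other libraries. Against the other 3 knockdowns it was higher in shSMARCA4 (log2 difference 1.37, SE 0.26, limma adjusted p = 0.0121) and lower in shMAFK (log2 difference -1.57, SE 0.26, limma adjusted p = 0.0224). Against shLUC the log2 changes were 0.79 (SE 0.31, limma adjusted p = 0.244) and -1.42 (SE 0.31, limma adjusted p = 0.176). The call in shSMARCA4 was lost without shSMARCA4 1 (limma adjusted p = 0.0605) or shSMARCA4 2 (0.143), and that in shMAFK without shSMARCA4 2 (0.0568), shMAFK 1 (0.200) or shMAFK 2 (0.229).

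SLC16A3 (ENSG00000141526, chr17:82228397-82261129, plus strand) encodes MCT4, a transporter that carries lactate out of glycolytic cells. Values were 1018 and 628 in shLUC, 206 and 278 in shMAFK, 1103 and 848 in shSMARCA4, 396 and 932 in shE2F6 and 856 and 1229 in shKDM1A. Only in the libraries labelled shMAFK did both values lie below every other library, at 29.4% of the shLUC mean. The difference from the other 3 knockdowns was -1.82 on the log2 scale (SE 0.33, limma adjusted p = 0.0309), and that from shLUC -1.74 (SE 0.40, limma adjusted p = 0.179). The call was lost without either shMAFK library (limma adjusted p = 0.237 and 0.287), without either shSMARCA4 library (0.0700 and 0.0638), and with values above 15000 set to 15000 (0.0607). SLC16A3 shares 482 exon bases with CSNK1D on the opposite strand, and the strand setting of the counting is not given in the sources used here.

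**Figure D3:**
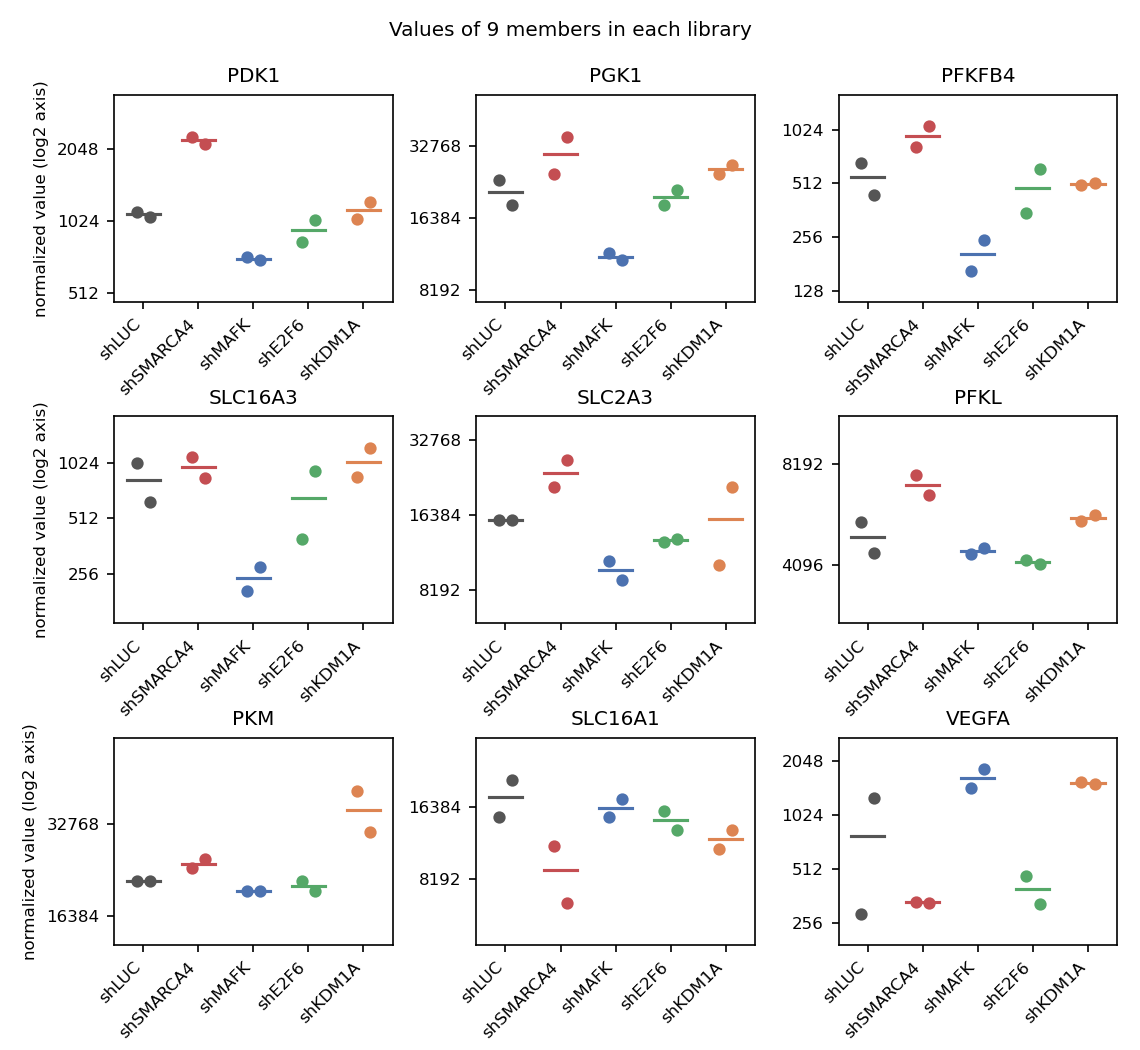
Normalized value of 9 members in each library on a log2 axis; points are libraries, short lines are group means of 2 libraries. PDK1, PGK1, PFKFB4 and SLC16A3 have their lowest points in shMAFK, PDK1 and PFKFB4 their highest in shSMARCA4, and VEGFA has its shLUC points at 288 and 1278.

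The RefSeq promoter table (GRCh38.p14) held 31 of the 35 members; SLC2A3, SLC16A1, BNIP3L and VEGFA had no entry. The letters ACGTG were searched on both strands in the 250 bases before each start. They stood in at least 1 promoter of 19 of 31 members (61.3%), against 28.9% of the genes of the table. Counted by promoter, the share was 22 of 61 (36.1%) against 22.1%. The E-box CACGTG, which contains ACGTG and is also the site of other factors such as MYC, stood in 25.8% of members against 11.2% of genes. GCGTG, the other common form of the HIF core, stood in 51.6% against 53.2%. Counted by promoter, CACGTG stood in 13.1% against 8.11%, and GCGTG in 32.8% against 43.0%. Stretches around the sites are shown for PDK1, PGK1 and SLC16A3, which passed a test above, for HK2 and LDHA, which lay wholly below shLUC in shMAFK, and for BNIP3 and ANKRD37 of the hypoxia response. Capitals mark ACGTG or its reverse complement CACGT, and each is read 5′ to 3′ on the strand of the gene.
PDK1, chr2:172556057-172556086, plus strand: cgcccctgctgcccgcCACGTccctCACGT
PGK1, chrX:78104021-78104075, plus strand: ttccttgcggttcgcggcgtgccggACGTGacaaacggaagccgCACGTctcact
SLC16A3, chr17:82228949-82229003, plus strand: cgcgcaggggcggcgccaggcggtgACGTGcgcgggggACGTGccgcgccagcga
HK2, chr2:74834951-74835005, plus strand: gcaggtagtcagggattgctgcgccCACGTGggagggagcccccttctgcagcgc
LDHA, chr11:18394465-18394494, plus strand: agcccgactcaCACGTGggttcccgCACGT
BNIP3, chr10:131982027-131982081, minus strand: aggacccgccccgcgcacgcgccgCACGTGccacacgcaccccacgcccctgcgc
ANKRD37, chr4:185396673-185396702, plus strand: gggctcCACGTGccagtgtttgtgtACGTG
The E-box CACGTG reads the same on both strands and is taken here as 1 site. Each of these stretches then holds at least 1 site, and all except HK2 and BNIP3 hold a pair. ACGTG did not separate the members by their level in shMAFK. It stood in 11 of the 19 matched members that lay wholly below shLUC (57.9%) and in 8 of the other 12 (66.7%). GCGTG was not split in this way, so nothing is concluded on HIF sites as a whole. PFKFB4, PFKL and PKM, which also passed a test, had no ACGTG in this window. A GCGTG stood there in PFKFB4 and in PFKL, but not in PKM.

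Among the glucose transporters, SLC2A3 (GLUT3) had 15764 in both shLUC libraries, 10759 and 9058 in shMAFK, 21314 and 27330 in shSMARCA4, 12832 and 13161 in shE2F6 and 10352 and 21314 in shKDM1A. The shMAFK and shE2F6 pairs lay below shLUC and the shSMARCA4 pair above it, while the shKDM1A pair straddled it. SLC2A3 was higher in shSMARCA4 than in the other 3 knockdowns (log2 difference 0.96, SE 0.23, limma adjusted p = 0.0356), and passed in 9 of 19 alternatives. The call was lost with values above 15000 set to 15000 (log2 difference 0.36, limma adjusted p = 0.142), without a mean-variance trend (0.0553) and without any 1 library of the other 4 groups, the range of the limma adjusted p over all 19 being 7.00e-04 to 0.305. Only the omission of a shKDM1A library kept it among the fits that left out 1. SLC2A1 (GLUT1) ranged from 4612 in shKDM1A 1 to 10950 in shKDM1A 2 and was 10534 and 8852 in shLUC. Its values were below both controls in both libraries of shMAFK (6828 and 6077), of shE2F6 (6928 and 8086) and of shSMARCA4 (8628 and 8496).

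Of the enzymes that trap and isomerize glucose, HK1, HK2 and GPI all lay wholly below shLUC in shMAFK, with log2 changes of -0.45, -0.51 and -0.30. None passed the test, with limma adjusted p of 0.481, 0.424 and 0.880. HK2, the hexokinase known for its induction in low oxygen, had 3262 and 3150 in shLUC against 2302 and 2190 in shMAFK, and 4092 and 3093 in shKDM1A. The shE2F6 pair of HK2, 2420 and 2712, also lay below the controls. GPI (glucose-6-phosphate isomerase) had 8220 and 7576 in shLUC, 6143 and 6647 in shMAFK, 9772 and 10534 in shSMARCA4, 7784 and 8628 in shE2F6 and 3622 and 7440 in shKDM1A. The low shKDM1A value of GPI came from shKDM1A 1: the log2 change against shLUC was -0.60 (SE 0.28, limma adjusted p = 0.446) with both libraries, -0.085 without shKDM1A 1 and -1.12 without shKDM1A 2 (limma adjusted p = 0.00205).

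Phosphofructokinase, the committed step, is built from the subunits PFKL, PFKM and PFKP. PFKL had 5500 and 4453 in shLUC, 4427 and 4613 in shMAFK, 7578 and 6648 in shSMARCA4, 4262 and 4132 in shE2F6 and 5536 and 5791 in shKDM1A. Both shSMARCA4 libraries were above all others, and PFKL was higher there than in the other 3 knockdowns (log2 difference 0.58, SE 0.12, limma adjusted p = 0.0212; against shLUC 0.52, SE 0.15, limma adjusted p = 0.109). The call was lost without shSMARCA4 1 (limma adjusted p = 0.182), shSMARCA4 2 (0.0818), shMAFK 1 (0.0597) or shMAFK 2 (0.0546). PFKM and PFKP ranged from 1898 to 2701 and from 2412 to 3474 over the 10 libraries, so of the 3 subunits only PFKL passed a test. PFKFB3, which like PFKFB4 sets fructose 2,6-bisphosphate, ranged from 542 to 853 and lay wholly above shLUC in shE2F6 and in shKDM1A.

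In the triose and lower steps, the shMAFK libraries of ALDOC, PGAM1 and ENO1 lay wholly below shLUC, with log2 changes of -0.46, -0.20 and -0.33, and those of ALDOA and TPI1 overlapped it (-0.044 and -0.18). PGAM1 also lay wholly below shLUC in shE2F6 (log2 change -0.25). ALDOC, the brain form of aldolase, lay wholly above shLUC in shSMARCA4 (1624 and 1859 against 1343 and 1076; log2 change 0.53, SE 0.26, limma adjusted p = 0.364). GAPDH, often used as a reference gene, had 61939 in 7 libraries, 51684 in shKDM1A 1 and 148866 in shSMARCA4 2 and shE2F6 2, where a single rank step of 1.265 makes up the whole difference. ENO2, the neuronal enolase, lay wholly below shLUC in shSMARCA4 (1539 and 2039 against 2530 and 2934; log2 change -0.62, SE 0.26, limma adjusted p = 0.280). PKM (ENSG00000067225, chr15:72199029-72231822, minus strand), pyruvate kinase, which makes the last ATP of the pathway, had 21308 in both shLUC libraries, 41804 and 30768 in shKDM1A, 23453 and 25021 in shSMARCA4, 19692 in both shMAFK libraries and 21308 and 19692 in shE2F6. PKM was higher in shKDM1A than in the other 3 knockdowns (log2 difference 0.75, SE 0.12, limma adjusted p = 0.0419), and both shKDM1A libraries were above all others. All its values are above 15000, and the call held in 6 of 19 alternatives. Among these were the fit with no filter, which repeats the main fit, and those with other scalings. The PKM call was lost on leaving out any library except shKDM1A 2, as well as in 4 other alternatives named in the closing section.

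In the lactate branch, LDHA, which reduces pyruvate, had 21308 and 15759 in shLUC and 11997 and 13159 in shMAFK (log2 change -0.54, SE 0.18, limma adjusted p = 0.378), and the groups did not overlap. LDHB, its partner subunit, lay wholly below shLUC in shMAFK too (log2 change -0.48). SLC16A1 (MCT1) is a lactate carrier that works in both directions. It had 14834 and 21308 in shLUC, 14834 and 17670 in shMAFK, 11277 and 6490 in shSMARCA4, 15759 and 13159 in shE2F6 and 10950 and 13159 in shKDM1A. The shSMARCA4 and the shKDM1A pairs both lay below both controls. In shSMARCA4 this was a log2 change (SE 0.27) of -1.06 and a limma adjusted p of 0.0704. That change passed without the shKDM1A libraries (limma adjusted p = 0.0474), without shKDM1A 1 alone (0.0478), without shKDM1A 2 alone (0.0468), with group weights (0.0255) and without shSMARCA4 1 (log2 change -1.45, limma adjusted p = 0.0379), and without shSMARCA4 2 it was -0.66.

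The 11 measured genes of the hypoxia response did not all lie on the same side of shLUC in any knockdown. In shMAFK 4 lay wholly below shLUC (BNIP3, EGLN1, P4HA1 and KDM3A) and 2 above (VEGFA and HIF1A), with a median log2 change of -0.096. In shE2F6 5 lay below (BNIP3, BNIP3L, P4HA1, KDM3A and ANKRD37) and 0 above, with a median of -0.44. In shSMARCA4 and in shKDM1A 2 lay below and 2 above, with medians of 0.032 and 0.052. Of all rows, 25.3% lay below and 23.8% above in shMAFK, and 20.4% and 20.3% in shE2F6. In shSMARCA4 these shares were 25.4% and 25.6%, and in shKDM1A 20.9% and 17.9%. With only 11 genes, the counts below exceeded these shares in shMAFK and shE2F6. The other counts were near or under them. MXI1, an antagonist of MYC, stayed between 367 and 514 in all libraries, and its knockdown libraries overlapped shLUC in every comparison. BNIP3, a receptor for the removal of mitochondria, had 2555 and 2441 in shLUC, 1596 and 2005 in shMAFK, 3583 and 2520 in shSMARCA4, 1518 and 1418 in shE2F6 and 1780 and 2891 in shKDM1A. The shE2F6 pair held the lowest BNIP3 values of the 10 libraries (log2 change against shLUC -0.77, SE 0.26, limma adjusted p = 0.885). Its relative BNIP3L had 1859 and 1761 in shLUC, 1568 and 1828 in shMAFK, 1487 and 1530 in shSMARCA4, 1266 and 1476 in shE2F6 and 1228 and 1662 in shKDM1A. Its highest values were in shLUC and shMAFK 2, and the shE2F6 difference from shLUC was -0.40 on the log2 scale (SE 0.18, limma adjusted p = 0.978).

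P4HA1 and P4HA2 encode catalytic subunits of the enzyme that hydroxylates prolines in collagen. P4HA1 had 1884 and 1604 in shLUC, 1479 and 1340 in shMAFK, 1712 and 1304 in shSMARCA4, 1228 and 1217 in shE2F6 and 1809 and 2130 in shKDM1A; the shE2F6 pair was the lowest (log2 change -0.51, SE 0.18, limma adjusted p = 0.925). P4HA2 had 352 and 244 in shLUC, 284 and 356 in shMAFK, 442 and 504 in shSMARCA4, 334 and 432 in shE2F6 and 410 and 402 in shKDM1A. The shSMARCA4 pair was the highest for P4HA2 (log2 change 0.69, SE 0.22, limma adjusted p = 0.142). KDM3A, a demethylase of histone H3, had 1820 and 1304 in shLUC, 980 and 1174 in shMAFK, 1696 and 1410 in shSMARCA4, 1102 and 1174 in shE2F6 and 1792 and 1304 in shKDM1A. The shMAFK and shE2F6 libraries of KDM3A all lay below the other 6 (log2 changes -0.52 and -0.44, SE 0.22 each, limma adjusted p = 0.558 and 0.987). ANKRD37, an ankyrin repeat gene known as a HIF target, had 68 and 78 in shLUC, 46 and 78 in shMAFK, 110 and 90 in shSMARCA4, 38 and 53 in shE2F6 and 38 and 44 in shKDM1A. Only shSMARCA4 lay above the controls for ANKRD37, while shE2F6 and shKDM1A lay below (log2 changes -0.69 and -0.82, SE 0.37 each, limma adjusted p = 0.989 and 0.442). ANKRD37 shares 909 exon bases with UFSP2 on the opposite strand, and reads in those shared bases cannot be told apart without the strand.

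VEGFA (ENSG00000112715, chr6:43770184-43786487, plus strand), the growth factor of blood vessels, fell into 2 levels that cut across the control pair. It had 288 in shLUC 1 and 1278 in shLUC 2, 336 and 330 in shSMARCA4, 467 and 326 in shE2F6, 1461 and 1859 in shMAFK and 1572 and 1534 in shKDM1A. The knockdown pairs lay close together and the shLUC libraries did not: the SD of VEGFA within shLUC, 1.52 on the log2 scale, was the largest of any member in any group. The log2 changes were 1.44 in shMAFK and 1.35 in shKDM1A (SE 0.54 each, limma adjusted p = 0.470 and 0.407). These calls turned on which control library was kept. Without shLUC 2 the changes were 2.51 in shMAFK and 2.43 in shKDM1A and passed (limma adjusted p = 0.0262 and 0.0332); without shLUC 1 the shKDM1A change was 0.28, while the shSMARCA4 change went from -0.86 to -1.94 and passed (limma adjusted p = 0.0200). Against the other 3 knockdowns VEGFA was at -1.58 in shSMARCA4, 1.49 in shMAFK and 1.37 in shKDM1A (limma adjusted p = 0.0591, 0.137 and 0.181). These contrasts passed when either shLUC library was left out (limma adjusted p at most 0.0025, 0.0146 and 0.0348), in fits that hold 1 shLUC library and so no spread within shLUC. HIF1A, the regulator itself, had 4852 and 5536 in shLUC, 5706 and 6012 in shMAFK, 4808 and 5844 in shSMARCA4, 4906 and 6490 in shE2F6 and 4958 and 5536 in shKDM1A. Its log2 change against shLUC lay between 0.016 and 0.18 (SE 0.18 each). In shMAFK, where both libraries lay above both controls, the 95% interval ran from -0.23 to 0.58. The data are thus compatible with HIF1A changes anywhere in that range, 0 among them.

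Ratios between related members in the same library are free of any factor common to that library. They are not corrected for gene length, so only their differences between libraries are read, and no test was run. The log2 ratio of PFKL to PFKP was 0.75 and 0.63 in shLUC and 1.42 and 1.46 in shSMARCA4, and no other library exceeded 0.83. The ratio of PFKFB3 to PFKFB4 was -0.022 and 0.66 in shLUC, 1.89 and 1.72 in shMAFK and -0.25 and -0.98 in shSMARCA4, so shMAFK and shSMARCA4 lay on opposite sides of the controls. The ratio of SLC16A1 to SLC16A3 was 3.86 and 5.08 in shLUC, 6.16 and 5.99 in shMAFK and 3.35 and 2.94 in shSMARCA4. Here too shMAFK was highest and shSMARCA4 lowest of the groups. The ratio of BNIP3 to BNIP3L was 0.46 and 0.47 in shLUC, 1.27 and 0.72 in shSMARCA4, 0.54 and 0.80 in shKDM1A, 0.026 and 0.13 in shMAFK and 0.26 and -0.058 in shE2F6. The ratio of EGLN1 to EGLN3, the oxygen sensors, was 0.50 and 0.29 in shLUC, 1.08 and 1.06 in shSMARCA4 and 0.97 and 0.64 in shKDM1A, all above the controls, and -0.045 and -0.48 in shMAFK and -0.46 and 0.14 in shE2F6, all below them. The ratio of SLC2A1 to SLC2A3 was -0.58 and -0.83 in shLUC and -1.31 and -1.69 in shSMARCA4, a difference of -0.79 that shrank to -0.17 with values above 15000 set to 15000. It was also below the controls in shKDM1A, at -1.17 and -0.96. The ratio of HK1 to HK2 was 1.33 and 1.45 in shLUC, 0.92 and 1.52 in shSMARCA4 and 1.53 and 1.38 in shMAFK, which overlapped, and 1.74 and 1.89 in shE2F6, the highest of the 10 libraries.

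**Figure D4:**
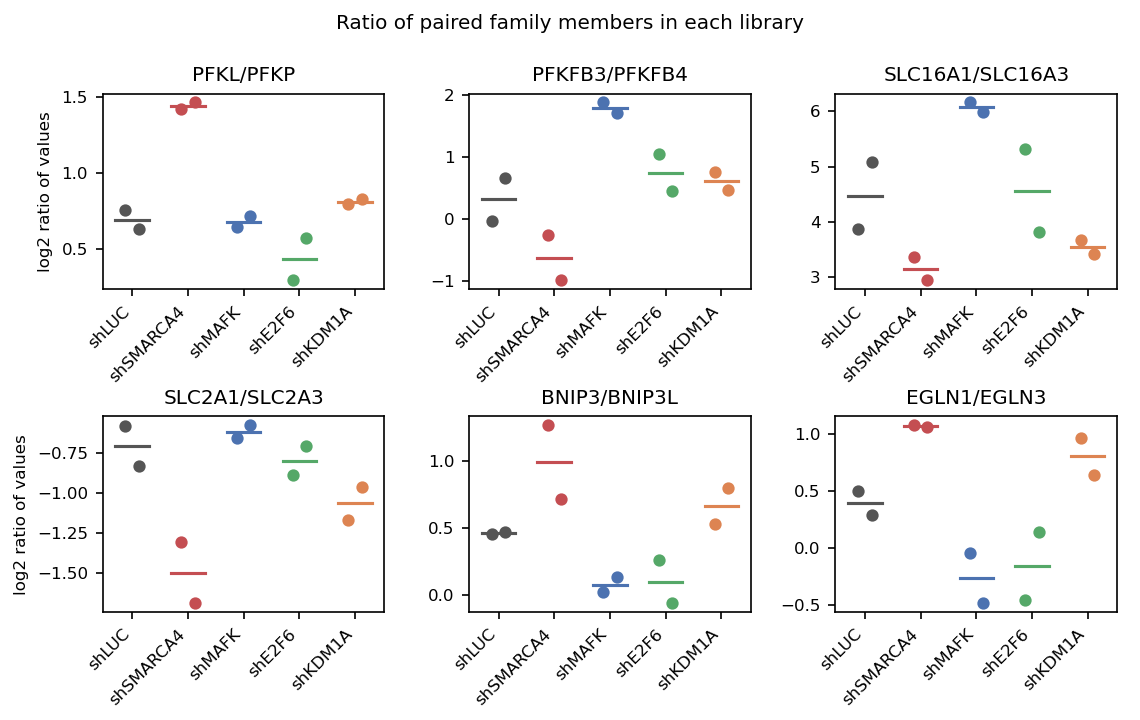
Log2 ratio of the values of 6 pairs of related members in each library; points are libraries and short lines are means of 2. The PFKL to PFKP ratio is 1.42 and 1.46 in shSMARCA4 against 0.75 and 0.63 in shLUC, and the PFKFB3 to PFKFB4 ratio is 1.89 and 1.72 in shMAFK against -0.022 and 0.66 in shLUC.

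Around the core pathway, 37 of 38 listed genes of pyruvate use, the pentose phosphate path and glycogen were measured, with 14 of 15 genes of oxygen sensing and 31 of 33 other hypoxia-induced genes. In shMAFK 18 of the 37 (48.6%), 3 of the 14 (21.4%) and 15 of the 31 (48.4%) lay wholly below shLUC, against 25.3% of all rows, and none passed the test. GYS1, wholly below shLUC in shMAFK, is in the list of 37 and in that of 31 and is counted in both. Of the 14 genes of oxygen sensing 5 (35.7%) lay wholly above shLUC in shMAFK, against 23.8%. In shKDM1A 6 of the 14 (42.9%) lay wholly below, against 20.9% of all rows. The counts below were 5 in shSMARCA4 (35.7%, against 25.4%) and 4 in shE2F6 (28.6%, against 20.4%). The 37 genes were also below shLUC more often than all rows in shSMARCA4 (16, 43.2%, against 25.4%) and in shKDM1A (14, 37.8%, against 20.9%), and in shE2F6 the count was 9 (24.3%, against 20.4%). Of the 31 genes 8 (25.8%) lay below in each of shSMARCA4, shE2F6 and shKDM1A. In shSMARCA4, where 4.18% of all rows passed the test, 0 of the 37 passed, 1 of the 14 was lower, and of the 31 1 was higher and 2 were lower; no gene of these lists passed in shE2F6 or shKDM1A. CITED2, which competes with HIF1A for its coactivator, had 1070 and 1335 in shLUC and 594 and 586 in shSMARCA4 (log2 change -1.02, SE 0.20, limma adjusted p = 0.0242). PLOD1, a collagen lysyl hydroxylase, went from 1418 and 1264 to 766 and 834 (log2 change -0.74, SE 0.17, limma adjusted p = 0.0431). KDM4C, a histone demethylase, rose from 966 and 942 to 1490 and 1728 (log2 change 0.75, SE 0.15, limma adjusted p = 0.0302). Of the hypoxia-linked genes named here that passed in shSMARCA4, PDK1 and KDM4C were thus higher while CITED2 and PLOD1 were lower. The PDK1 call was lost when any of the compared libraries was left out. The calls of KDM4C, CITED2 and PLOD1 were not checked in this way.

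Without shKDM1A 2 the comparison of shKDM1A with shLUC rested on shKDM1A 1 alone and called 3235 of all rows (21.9%), where the pair called 4. The members called were then 8 (22.9%), a share near that of the table, namely SLC2A1, SLC2A3, GPI, ALDOC, PKM, BNIP3L, EGLN1 and EGLN3. EGLN1 had 2112 in shKDM1A 1 and 903 in shKDM1A 2 against 1028 and 746 in shLUC, and EGLN3 had 1080 and 578 against 728 and 610. The values of both genes that lay above shLUC were those of shKDM1A 1. With both libraries the log2 changes were 0.66 for EGLN1 and 0.25 for EGLN3, and neither passed (limma adjusted p = 0.487 and 0.692).

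By the annotation (GENCODE release 29), 24 members share exon bases with another gene, 19 of them with a gene on the opposite strand, and the partner is a row of the table for 12. Named pseudogenes exist for 16 members, 147 in all. How the counting shared such reads is not given in the sources used here, so values of these members may hold reads of their copies.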

How the data were processed

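RNA-seq values of 10 H1 libraries in 5 groups of 2 were used as deposited. The deposited values are scores: whole numbers that the authors normalized, described in the file name as normalized tag counts and not raw counts. Per the submitters' processing notes, STAR, STARsolo and hg38 were used; the counter, the annotation, the strand setting and the normalization are not given in the sources used here. Unmapped columns numbered 0. Values were tested as log2(value + 1), which understates the change of low genes, with limma 3.58.1 in R 4.3.3 (two-sided tests with the eBayes trend option). All libraries entered 1 model, which left 5 residual degrees of freedom, with Benjamini-Hochberg adjustment over 14785 rows. The contrasts were each knockdown against shLUC and against the mean of the other 3 knockdowns, and an F-test over 5 groups. A filter at a mean of 10 removed 0 rows. The fit was checked on simulated data.

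Whether the biological duplicates named in the series were separate cultures is not said further, so p-values measure the spread between these libraries. The members and lists were chosen with earlier results of these data known. Values in every library are given for members past the threshold in any test, for the 4 members with the smallest unadjusted p in each comparison with shLUC, and for HIF1A; other members are named by what the text says of them. Of the other pathway lists, genes past the threshold are named, except 1 that is counted but not reported here. Promoter sequences and gene positions are from RefSeq (GRCh38.p14) and GENCODE release 29, handled with Python 3.11.15 and pandas 2.3.3. Alternatives were other pseudocounts, filters, scalings, weights and libraries, a limit of 15000 on high values, and the replicate number as a block. As the filter removed 0 rows and the libraries share a common scale, fits with no filter or another scaling nearly repeat the main fit. Counts of alternatives passed are therefore not counts of independent checks. Counts of members without overlap were also recomputed, an alternative chosen after seeing the data.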

Additional observations from a re-analysis of the deposited data

How the results depend on the processing

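None of the 11 member changes called against shLUC or against the other knockdowns had the other sign under an alternative (PKM was 0 with its values set to 15000); changes that were not called did for 6 to 18 members a comparison, among them SLC2A3 in shKDM1A against the others (0.027, and -0.49 without shKDM1A 2, limma adjusted p = 0.0372). The median changes in shSMARCA4 and shKDM1A crossed 0 on leaving out a control library (ranges below). Depth is unknown, and rank steps limit members above 15000. With those set to 15000, 1 member (PGK1) was called in shMAFK against shLUC (all rows 0.0203%). The median change was then -0.18 in shMAFK and -0.086 in shE2F6. Rows against the other knockdowns fell to 169 in shMAFK, 15 in shE2F6 and 10 in shKDM1A, and PKM was lost (0 members). With group weights the rows called against shLUC were 487 in shMAFK, 1306 in shSMARCA4, 21 in shE2F6 and 2 in shKDM1A. The members were 3 in shSMARCA4 (all rows 8.83%) and 6 in shMAFK (all rows 3.29%). Those in shMAFK were SLC2A3, HK2, PFKFB4, PGK1, SLC16A3 and PDK1. Against the other knockdowns 8 members were called in shSMARCA4 (all rows 8.66%), 7 in shMAFK (4.69%) and 0 in shKDM1A (0.0203%). The rows were 693 in shMAFK and 3 in shKDM1A. The F-test gave 1502 rows (10.2%) and 10 members. Without a trend, 5 rows in shMAFK, 9 in shKDM1A, 26 in shE2F6 against the others, and 0 members in shKDM1A against the others. A mean of at least 200 gave 19 rows in shE2F6 against the others, and quantile normalization 5 in shMAFK against shLUC. Median ratio scaling gave 2 members wholly above shLUC in shE2F6, against 21.8% of all rows. Without shKDM1A, 1162 rows (7.86%) and 3 members in shSMARCA4, 34 rows in shMAFK and 5 in shE2F6 were called against shLUC. With only the 2 groups compared, 2 members were called in shSMARCA4 (all rows 6.22%). The rows were then 32 in shMAFK, 1 in shE2F6 and 1 in shKDM1A.

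With the replicate block, 1 row in shMAFK against shLUC was called, and 31 in shE2F6 and 62 in shKDM1A against the others, where PKM was lost (limma adjusted p = 0.0519; 0 members). The numbers were not taken as pairs: deviations of same-numbered libraries correlated at -0.050 to 0.337 over 10 pairs of groups, 2 of them over 0.1. ENO2 passed with the block as lower in shSMARCA4 than in the others (log2 difference -0.53, limma adjusted p = 0.0326 against 0.179), and the block changed no other member's call in these contrasts or against shLUC.

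Leaving out 1 library at a time gave these ranges. Rows called against shLUC: 89 to 1159 in the shSMARCA4 comparison, 0 to 37 for shMAFK, 0 to 5 for shE2F6 and 1 to 3235 for shKDM1A, the order kept below. Members called: 0 to 3, 0 to 1, 0 to 0 and 0 to 8. Median changes: -0.0019 to 0.20, -0.28 to -0.18, -0.22 to -0.057 and -0.076 to 0.11. Members wholly below shLUC: 9 to 13, 20 to 27, 15 to 20 and 5 to 14. Members wholly above: 11 to 17, 3 to 6, 3 to 8 and 8 to 16. Leaving out a compared library can only keep or raise the counts wholly below or above, for all rows as for members. These ranges therefore do not measure stability, and the shares of all rows in these fits are not given here. Rows against the other knockdowns: 436 to 3108, 0 to 1752, 0 to 854 and 6 to 4448. Members against them: 1 to 13, 0 to 10, 0 to 2 and 0 to 9. The F-test gave 188 to 4673 rows and 1 to 17 members. The highest row counts against the other knockdowns and in the F-test came without shKDM1A 2; the cause was not tested.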

Other observations

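Some genes of the other pathway lists, picked here after their values were seen, had the same split of the control pair as VEGFA. PCK2, the mitochondrial enzyme that makes phosphoenolpyruvate, had 916 and 2606 in shLUC, 8086 and 6343 in shMAFK, 547 and 588 in shSMARCA4, 1250 and 1063 in shE2F6 and 4852 and 4065 in shKDM1A. DDIT4, an inhibitor of mTORC1 signalling, had 2170 and 6580 in shLUC, 8497 and 7578 in shMAFK, 1510 and 1793 in shSMARCA4, 990 and 1220 in shE2F6 and 8630 and 10074 in shKDM1A. STC2, a secreted glycoprotein, had 728 and 2346 in shLUC, 3528 and 3366 in shMAFK, 454 and 540 in shSMARCA4, 1118 and 930 in shE2F6 and 3622 and 3025 in shKDM1A. In each of the 3 genes shLUC 2, shMAFK and shKDM1A were the 5 highest libraries. Against shLUC in shMAFK, PCK2 stood 2.21 higher on the log2 scale (SE 0.40, limma adjusted p = 0.140), DDIT4 1.09 (SE 0.41, limma adjusted p = 0.477) and STC2 1.40 (SE 0.43, limma adjusted p = 0.341).

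Other hypoxia-induced genes were low in shMAFK, picked in the same way. AK4, a mitochondrial adenylate kinase, had 5844 and 5788 in shLUC, 3025 and 1991 in shMAFK, 6746 and 6012 in shSMARCA4, 6249 and 5235 in shE2F6 and 4261 and 5026 in shKDM1A. FAM162A, a mitochondrial protein, had 2331 and 1964 in shLUC against 1178 and 1140 in shMAFK, and PLOD2, a collagen lysyl hydroxylase, had 1259 and 1362 against 674 and 733. The shMAFK pair was the lowest of the groups in all 3 genes. Their log2 changes were -1.24 (SE 0.21), -0.88 (SE 0.16) and -0.90 (SE 0.18), and none passed (limma adjusted p = 0.140, 0.140 and 0.144). TFRC, the transferrin receptor, was the other way, with 3289 and 2606 in shLUC and 6647 and 6143 in shMAFK (log2 change 1.13, SE 0.29, limma adjusted p = 0.233).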
